A study of Ovis aries and Capra hircus and Bos taurus with 26 samples.

Results

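H3K4me3 regions with no H3K27ac nearby were collected from liver peak lists of cattle, sheep and goats. The criteria were applied per species to the autosomes. The H3K4me3 intervals of the 3 libraries were merged, and a merged region was kept when every one of the 3 libraries had an interval in it, when it was narrower than 2000 bp, and when no H3K27ac interval of any library of the species came within 1 kb of it. In all, 7430 of 92345 merged H3K4me3 regions met these criteria. The 52655 regions that met the criteria on recurrence and width but had H3K27ac within 1 kb served as comparison regions.

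The liver came from adult healthy animals, 3 Holstein cattle, 3 Texel sheep and 3 Yunnan black goats, with no treatment, and each animal was a separate sample. Chromatin immunoprecipitation followed by sequencing (ChIP-seq) gave 9 libraries of H3K4me3 and 8 of H3K27ac, since H3K27ac in cattle was available here for animals B and C only. The tissue was whole liver, so a peak can come from any cell type in it. No gene annotation or genome of the builds was used, so genes and sequences are not named, and the tissue was not checked against marker genes.

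H3K4me3, the trimethylation of lysine 4 of histone H3, is laid down around the start sites of genes and is found at most promoters that are rich in CpG, including many with little transcription. H3K27ac, the acetylation of lysine 27 of the same histone, accompanies active promoters and enhancers. Promoters of developmental genes that are silent in a differentiated tissue are known to carry H3K4me3 together with the repressive mark H3K27me3, and such promoters are called bivalent or poised. H3K27me3 was not analysed here, so no region below is assigned to that class.

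In cattle, 2623 of the 18779 regions that met the criteria on recurrence and width lacked H3K27ac within 1 kb, or 13.97%. Sheep had 2836 of 21375 (13.3%) and goats 1971 of 19931 (9.89%). Chosen from 2 animals only, the regions numbered 4744 without cattle B, 4282 without sheep A and 3167 without goat A, over 1.5 times as many. Among all merged autosomal H3K4me3 regions, whatever their recurrence and width, cattle had 25.5% without H3K27ac within 1 kb, sheep 23.4% and goats 17.6%. That share fell with the number of H3K4me3 libraries that held a region. In cattle it was 53.5% for regions of 1 library, 47.4% for regions of 2 and 13.4% for regions of 3. The same shares were 48.8%, 39.8% and 12.7% in sheep and 40.2%, 30.7% and 9.44% in goats. Regions of 2000 bp or more that recurred in all libraries almost always had H3K27ac nearby, and 12 of 903 in cattle, 12 of 1066 in sheep and 7 of 1028 in goats did not. These counts follow from the criteria and were not tested.

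The number of H3K27ac libraries set how many regions were kept. With the H3K27ac list of a single goat, 2900 to 3161 regions had none nearby, with any pair of goats 2234 to 2330, and with all 3 goats 1971. In sheep the corresponding counts were 4186 to 4821, 3175 to 3434 and 2836. With 1 cattle list the count was 3332 (animal B) or 3371 (animal C), and with both it was 2623. The cattle count rests on 2 H3K27ac libraries and is therefore set beside the counts from pairs in the other species, above those in goats and below those in sheep.

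The H3K4me3 signal of these regions was weaker and narrower than that of comparison regions in every library. Fold enrichment is the authors' ratio of ChIP signal to background, and values of the classes were compared within a library. The median fold enrichment in cattle was 6.35 in animal A, 5.14 in B and 6.88 in C, against 8.19, 7.77 and 9.10 for comparison regions. In sheep A, B and C it was 5.73, 5.95 and 5.95 against 8.39, 8.67 and 8.38. In goats A, B and C it was 5.40, 6.51 and 6.40 against 8.08, 9.32 and 9.24. In every library the comparison regions had the higher median, by 1.29 to 1.51 times. The median −log10 q, the authors' measure of confidence in a peak, ranged from 8.58 to 17.1 over the 9 libraries, against 33.4 to 97.1.

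**Figure D1:**
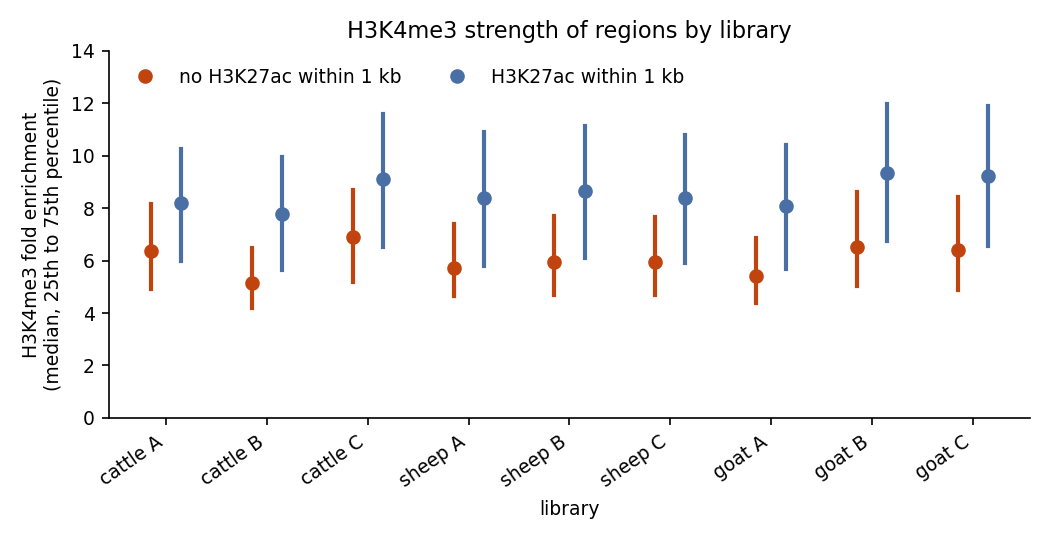
H3K4me3 fold enrichment (y axis, a ratio to background) in each of the 9 H3K4me3 libraries (x axis) for regions without and with H3K27ac within 1 kb. Points are medians over regions and bars run from the 25th to the 75th percentile. The medians without H3K27ac lie between 5.14 and 6.88, and those with it between 7.77 and 9.32.

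Cattle regions had a median width of 691 bp, sheep regions 665.5 bp and goat regions 708 bp, against 1087, 1047 and 1073 bp for comparison regions. A single summit was the rule. Between 16.6% and 28.2% of the peaks at these regions had more than 1 summit, depending on the library, against 37.5% to 48.9% at comparison regions. The peaks of different animals also covered less of a region in common. In 74.5% of the cattle regions each of the 3 libraries had a peak over at least 50% of the region, against 89.6% of comparison regions. The shares were 80.8% against 91.2% in sheep and 79.0% against 92.3% in goats. Regions were not replicates, and these differences between the classes are given as descriptions.

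The share without H3K27ac did not change evenly with H3K4me3 strength. Eligible regions were ranked by mean log2 fold enrichment over the 3 libraries and divided into 10 classes of equal size. In the weakest class 19.2% of the cattle regions lacked H3K27ac (95% Wilson interval 17.45% to 21.01%), and in the next class 29.6% did (27.5% to 31.7%). In sheep the share went from 18.2% to 28.9% between these classes, and goats went from 16.95% to 21.8%. From the second class on, the share fell almost without a break to 2.66% in cattle, 1.64% in sheep and 0.803% in goats in the strongest class. The intervals cover counting error only. With width the share fell, from 30.4% at 400 to 599 bp to 8.50% at 1000 to 1199 bp in cattle, 28.7% to 8.80% for sheep and 21.5% to 6.67% for goats.

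**Figure D2:**
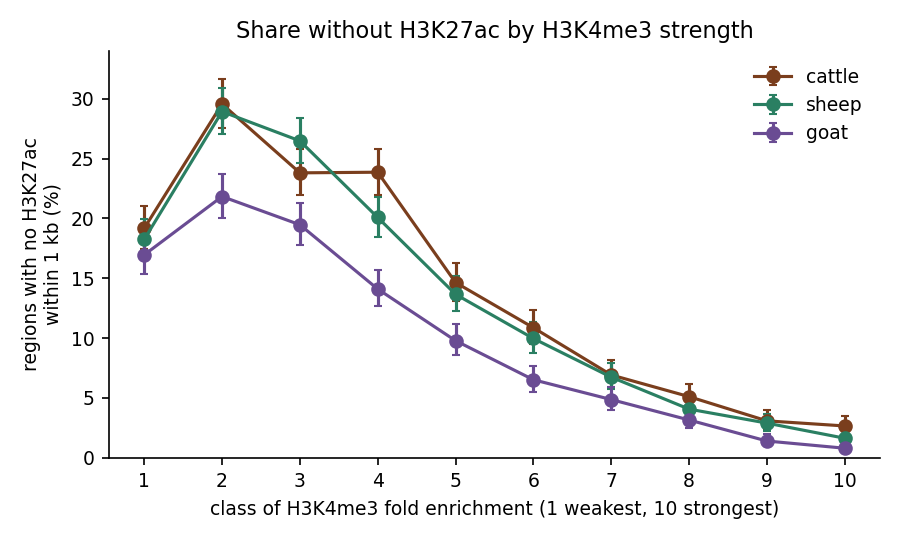
Share of eligible H3K4me3 regions with no H3K27ac within 1 kb (y axis, percent) in 10 classes of fold enrichment of equal size, from the weakest to the strongest (x axis), per species. Bars are 95% Wilson intervals. In each species the second class, at 29.6%, 28.9% and 21.8% in cattle, sheep and goats, stands above the weakest, and the strongest class is lowest.

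A small group was strong in all animals. Fold enrichment exceeded 10 in all 3 libraries at 61 cattle regions (2.33%), 89 sheep regions (3.14%) and 55 goat regions (2.79%), against 19.6%, 25.6% and 27.4% of comparison regions. The strong cattle regions were narrow, with a median width of 543 bp against 693 bp for the other cattle regions without H3K27ac, and 44.3% of them were under 500 bp. Strong sheep and goat regions were not narrower than the rest, with medians of 714 against 664 bp and 812 against 701 bp. Of the strong regions, 88.5% in cattle, 75.3% in sheep and 72.7% in goats had 1 summit in every library, against 61.8%, 63.9% and 59.4% of the others. Strong comparison regions were wider than these, with medians of 1069 bp in cattle, 1116 bp in sheep and 1135 bp in goats. The other comparison regions had medians of 1098, 995 and 1019 bp. Single summits in every library were also more frequent at strong comparison regions than at the other comparison regions. The shares were 55.1% against 35.9% in cattle, 51.2% against 43.1% in sheep and 46.5% against 40.3% in goats.

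The strongest region in sheep lay on chromosome 14 at 66374590-66375065 (Oar_rambouillet_v1.0) and was 476 bp wide. Its fold enrichment was 26.3 in animal A, 24.4 in B and 25.5 in C, first of all sheep regions without H3K27ac in each library. The nearest H3K27ac peak of any sheep was 183.7 kb away. The next were on chromosome 2 at 69089893-69090257 (19.7, 22.9 and 19.8 in A, B and C) and on chromosome 6 at 105983205-105983757 (19.2, 20.4 and 17.1). All of them were narrow regions with a single summit in each library.

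In cattle (ARS-UCD1.2), the strongest were 424 bp on chromosome 3 at 75867473-75867896, with fold enrichments of 20.2, 23.3 and 18.005 in animals A, B and C, and 395 bp on chromosome 4 at 41991762-41992156, with 18.05, 22.5 and 17.9. A region on the same chromosome at 60116953-60117406 had 17.3, 18.2 and 18.4 and lay only 8.05 kb from H3K27ac. In goats (ARS1), the strongest lay on chromosome 3 at 112020003-112020416, 414 bp wide and 8.01 kb from H3K27ac, with 14.8, 18.3 and 19.7 in A, B and C. The goat regions on chromosome 14 at 39063056-39063834 (13.96, 18.2 and 18.3) and on chromosome 22 at 38968477-38969414 (13.5, 16.5 and 17.6) followed. The choice of regions that rank high in all 3 libraries fixes that no library stands alone at them.

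The widest regions were of middling strength. The widest in cattle, 1976 bp on chromosome 19 at 28446892-28448867, had fold enrichments of 5.82, 5.24 and 6.98 in animals A, B and C. That in sheep, 1996 bp on chromosome 26 at 15461256-15463251, had 5.78, 5.67 and 6.13 with 3 or 4 summits per library. That in goats, 1996 bp on chromosome 5 at 1716206-1718201, had 5.23, 4.95 and 6.09. Few regions lay at the limits of the criteria. Cattle, sheep and goats had 0, 2 and 2 regions up to 20 bp below the width limit, and 0, 0 and 1 recurrent regions up to 20 bp above it. Up to 20 bp beyond the distance limit there were 1, 6 and 5 regions, and up to 20 bp short of it 5, 6 and 4 comparison regions. The region nearest to H3K27ac was 1014 bp away in cattle, 1002 bp in sheep and 1005 bp in goats, and the farthest comparison region 991, 997 and 995 bp.

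Most of the regions were far from any H3K27ac. The nearest H3K27ac peak lay at a median distance of 24.2 kb for cattle regions, 21.9 kb for sheep regions and 24.6 kb for goat regions. Between 1 and 5 kb lay 16.7%, 17.2% and 16.3% of the regions, and beyond 100 kb 479 (18.3%), 464 (16.4%) and 378 (19.2%). The classes of distance held similar shares of the regions in the 3 species. Distances over 1000 kb were found for 17 cattle, 11 sheep and 7 goat regions. The distance to the nearest H3K4me3 region with H3K27ac within 1 kb was longer, with medians of 34.8, 32.04 and 37.0 kb. Such regions were counted here whatever their recurrence and width.

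**Figure D3:**
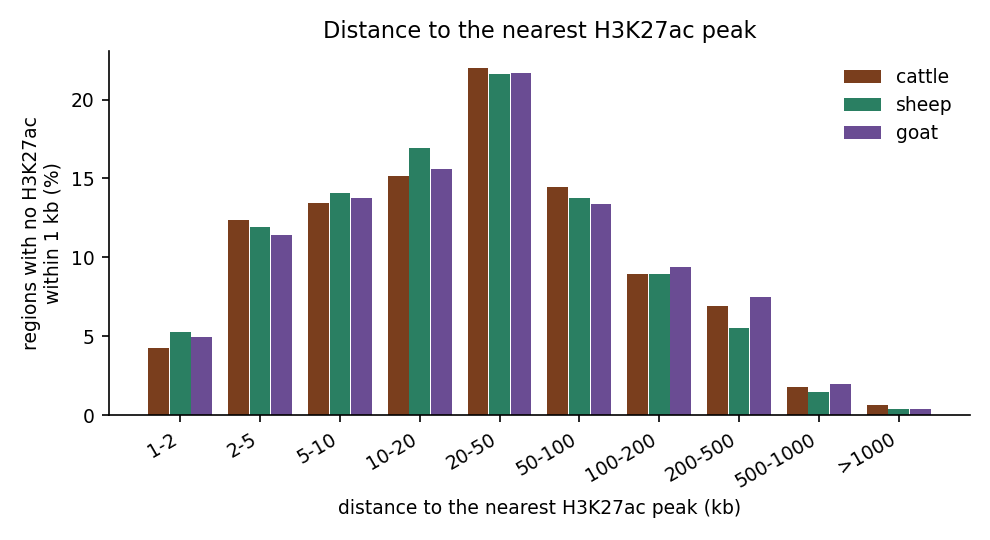
Distance of each region without H3K27ac within 1 kb to the nearest H3K27ac peak of the species (x axis, kb, classes of unequal width) and the percent of the regions of each species in the class (y axis). The class from 20 to 50 kb is the fullest, with 21.998%, 21.7% and 21.7% of the regions in cattle, sheep and goats.

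Regions next to the distance limit had the weakest H3K4me3. At 1 to 2 kb the median of the mean fold enrichment (geometric, over the 3 libraries) was 4.26 for cattle, 4.73 for sheep and 4.41 for goats, and at 20 to 50 kb it was 6.34, 6.04 and 6.40. At 50 to 100 kb it was 6.39, 6.11 and 6.74 and at 200 to 500 kb 6.12, 6.38 and 6.61, so between these classes only sheep rose. Regions beyond 100 kb had a higher fold enrichment than those at 1 to 10 kb, which include the weak regions next to the limit. Beyond 100 kb the median fold enrichment was 6.40, 5.24 and 7.19 in cattle A, B and C. In sheep A, B and C it was 6.35, 6.25 and 6.65, and in goats A, B and C 5.88, 6.81 and 7.01. In each of the 9 libraries this was above the median of the regions at 1 to 10 kb, which ranged from 4.89 in goat A to 6.002 in cattle C. The median −log10 q was higher beyond 100 kb in 7 of the 9 libraries and lower in cattle A (14.6 against 15.9) and sheep B (11.2 against 11.5). The most isolated region in goats, 938 bp on chromosome 4 at 120676569-120677506 and 1843 kb from H3K27ac, had fold enrichments of 7.85, 11.7 and 13.9 in A, B and C. Those in cattle (chromosome 27 at 45200896-45201299, 2378 kb) and sheep (chromosome 17 at 44601268-44601877, 1926 kb) had 5.08, 4.07 and 6.67 and 5.22, 11.1 and 11.4.

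To ask whether the regions depend on the animals that defined them, they were chosen again from 2 animals of a species and looked up in the third. With cattle B or C left out, the lack of H3K27ac rested on 1 list, that of the other animal, while every other choice used 2 lists. Regions chosen for lack of H3K27ac were found less often in the H3K4me3 list of the left-out animal. In cattle A, B and C, 94.0%, 71.2% and 91.5% had a peak there, against 98.7%, 92.8% and 98.8% of comparison regions chosen in the same way. In sheep A, B and C the shares were 80.5%, 86.2% and 89.0% against 92.5%, 97.7% and 97.7%. In goats A, B and C they were 73.7%, 91.0% and 93.2% against 90.2%, 98.7% and 98.3%. The difference was −10.6 ± 5.53 percentage points (SD, n = 9 animals) and lay below 0 in 9 of 9 animals, from −21.5 in cattle B to −4.74 in cattle A (p = 0.00391, two-sided exact sign-flip permutation test, the smallest p it can give). Animals of a species share the animals that chose their regions and are not fully independent. Compared within 10 classes of fold enrichment in the other animals the difference was −7.17 points (exact permutation p = 0.00391), and within width classes of 200 bp it was −5.50 points (exact permutation p = 0.00391), again below 0 in 9 of 9 animals in both.

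**Figure D4:**
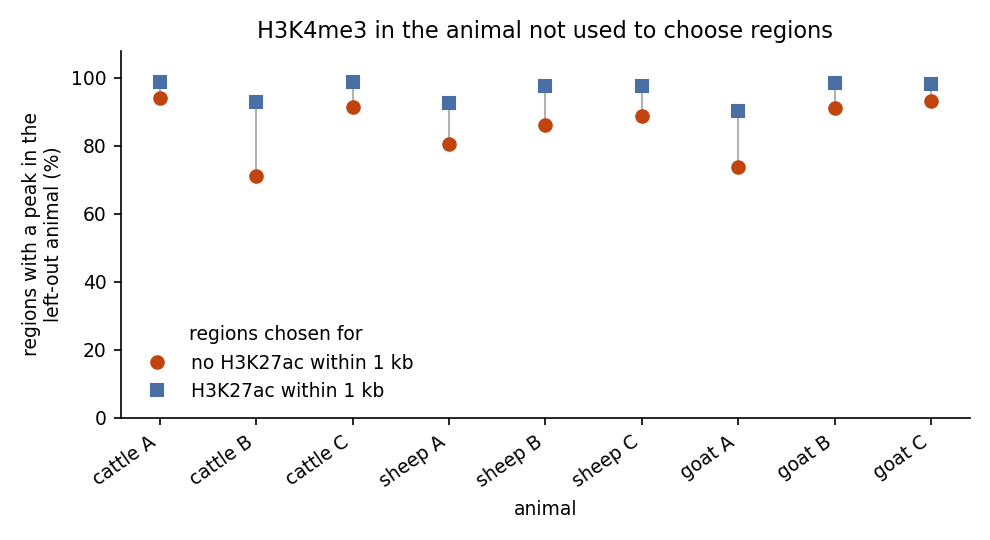
Percent of regions, chosen from the other 2 animals of the species, that had an H3K4me3 peak in the left-out animal (y axis), for each of the 9 animals (x axis). Circles are regions without H3K27ac within 1 kb and squares comparison regions, and the circle lies below the square in 9 of 9 animals.

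Where the left-out animal had a peak, that peak was weaker at regions without H3K27ac. The difference in mean log2 fold enrichment, without minus with H3K27ac, was −0.39 ± 0.057 (SD, n = 9), below 0 in 9 of 9 animals (p = 0.00391, two-sided exact sign-flip permutation test). Within width classes of 200 bp the difference was −0.19 and below 0 in 9 of 9 animals (exact permutation p = 0.00391). Within classes of fold enrichment in the other 2 animals it was −0.019, below 0 in 4 of 9 animals (exact permutation p = 0.645). Set against regions of like strength in the other animals, no difference in strength was therefore detected, while the difference in how often a peak was found stayed past the threshold.

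Absence of H3K27ac also carried over to the left-out animal for most regions. Of the regions chosen without H3K27ac, 18.97% in cattle B and 20.8% in cattle C had an H3K27ac peak of that animal within 1 kb. The shares were 16.3%, 9.72% and 16.1% in sheep A, B and C and 13.2%, 14.4% and 11.5% in goats A, B and C, or 15.1 ± 3.71% over the 8 animals (SD). The cattle shares, where 1 list had set the lack of H3K27ac, were the highest of the 8. Of the comparison regions, 88.3% to 95.2% had H3K27ac of the left-out animal within 1 kb. The H3K27ac peaks gained in this way were weak, with a median fold enrichment of 3.54 to 4.08 per animal, against 5.05 to 6.19 for those at comparison regions, and were the weaker in each of the 8 animals. When the H3K27ac peak had to cover at least 50% of the region, the share fell to 6.75%.

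Species were compared within animals, where each has 1 list of each mark. The share of an animal's H3K4me3 peaks under 2000 bp with no H3K27ac of its own within 1 kb was 21.2% and 23.6% in cattle B and C. It was 25.6%, 28.8% and 25.8% in sheep A, B and C and 17.2%, 19.3% and 22.6% in goats A, B and C. The sheep were all above the other animals, and the cattle fell within or just beyond the range of the goats. Means were 22.4 ± 1.68% (SD, n = 2), 26.7 ± 1.81% (SD, n = 3) and 19.7 ± 2.71% (SD, n = 3), with F = 7.83 (exact permutation p = 0.0179 over 560 arrangements). The sheep also had few H3K27ac peaks, 35693 to 39846 on autosomes, against 38390 and 42558 in cattle and 40457 to 48735 in goats. With the 20000 strongest H3K27ac peaks of every library, the sheep mean exceeded that of the goats by 4.28 points in place of 7.04 and the call was lost (exact permutation p = 0.196). The call was also lost for peaks under 1000 bp, where the excess was 8.15 points (exact permutation p = 0.0536), without goat A or goat B, at 5.78 and 6.86 points (exact permutation p = 0.0571 in both), without sheep B, at 5.995 points (exact permutation p = 0.124), and without cattle C, at 7.04 points (exact permutation p = 0.0571), which leaves 1 cattle animal assumed to vary like the other animals.

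The autosomes held 0.477 to 2.14 regions without H3K27ac per Mb, depending on the chromosome and species. Another one lay within 10 kb for 12.2% of those in cattle, 15.6% in sheep and 14.6% in goats, whereas 37.5%, 39.1% and 38.0% of the far more numerous comparison regions had another comparison region that close. No allowance was made for the number of regions in this comparison. Chosen from 2 animals, the regions had shares of 15.2% to 19.6% in cattle (highest without B), 17.3% to 18.9% in sheep and 15.8% to 17.5% in goats, and these ranges overlapped. Joined over gaps of up to 10 kb, 2303 of the cattle regions, 2394 of the sheep regions and 1683 of the goat regions stood alone. The longest runs held 5 regions, 1 run in cattle, 2 in sheep and 1 in goats. Comparison regions formed runs of up to 29. The first 5 Mb of the chromosomes held 8.62% of the cattle regions, 5.43% of the sheep regions and 7.26% of the goat regions, against 6.63%, 5.38% and 7.04% of comparison regions.

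The 1 Mb window with the most regions lacking H3K27ac was 31000001-32000000 on cattle chromosome 23, with 13 of 69 eligible regions (18.8%), followed by 12000001-13000000 on chromosome 7 with 10 of 39 (25.6%). In goats it was 58000001-59000000 on chromosome 7, with 12 of 30 (40.0%), followed by 2 windows with 10, of 23 on chromosome 4 at 51000001-52000000 (43.5%) and of 76 on chromosome 23 at 18000001-19000000 (13.2%). The 10 regions on chromosome 4 all lay between 51324949 and 51414322. In sheep the window 54000001-55000000 on chromosome 5 had 11 of 29 (37.9%), as many as a window on chromosome 17 (of 56, 19.6%) and another on chromosome 20 (of 31, 35.5%). The windows after the first of each species were named after their values were seen, and no positions of windows were matched between species.

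Chromosomes differed in the share of their eligible regions that lacked H3K27ac. In cattle the share ranged from 7.53% (49 of 651 regions) on chromosome 25 to 19.4% (61 of 315) on chromosome 20. In sheep it ranged from 8.77% on chromosome 24, the homologue of cattle 25, to 20.2% on chromosome 9, and chromosome 16, the homologue of cattle 20, had 18.1%. In goats it ranged from 6.15% on chromosome 25 to 14.1% on chromosomes 4 and 20. Not all homologues were alike. Cattle 7 had 16.4%, sheep 5 had 11.8% and goat 7 had 7.49%. Cattle 14, paired here with sheep 9, had 15.9%. H3K4me3 regions reached 82.3 Mb on cattle 14 and 104.7 Mb on sheep 9, so this pair need not hold the same sequence throughout. Over 26 groups of homologous chromosomes, paired by hand from their known karyotypes, the shares of cattle and sheep had Pearson's r = 0.76 and Spearman's rho = 0.77, those of cattle and goats 0.71 and 0.62, and those of sheep and goats 0.84 and 0.86. The points share the H3K27ac libraries of their species. Chromosomes with more H3K4me3 regions per Mb had lower shares, with r = −0.76 in cattle (29 chromosomes), −0.62 in sheep (26) and −0.58 in goats (29), so these correlations are descriptions of chromosomes that also differ in how dense their H3K4me3 regions are.

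Counterparts in another species were sought from the spacing of peaks, without sequence, on chromosomes paired as above. A region was placed where at least 5 of its flanking H3K4me3 regions within 100 kb had the same spacing on a homologous chromosome of the other species and every other position had at least 2 flanks fewer. This succeeded for 879 of 14860 placements of regions without H3K27ac and for 9048 of 105310 placements of comparison regions, in areas dense in H3K4me3, so the placed regions do not stand for all of them. Where the counterpart could be placed back, it returned to the starting region in 96.7% and 95.2% of cases. H3K4me3 was present within 1500 bp of the placed position for 84.8% and 93.7%. These placements were added after the data had been seen.

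Counterparts lacked H3K27ac far more often when the starting region lacked it. Of the counterparts with H3K4me3, 425 of 745 (57.0%) had no H3K27ac of any library of that species within 1 kb, against 421 of 8481 (4.96%) for comparison regions. The share depended on the direction. Starting from cattle regions it was 48.2% in sheep (41 of 85) and 40.4% in goats (40 of 99), so more than 50% of those counterparts had H3K27ac. Starting from sheep regions it was 57.1% in cattle and 50.2% in goats, and starting from goat regions 68.9% in cattle and 78.4% in sheep. Comparison regions gave 2.15% to 7.98% over the 6 directions. Counted with the marks of a single animal of the other species, which had no part in choosing the starting region, the share was 59.2% and 68.6% in cattle B and C, 82.8%, 82.0% and 77.6% in sheep A, B and C and 57.5%, 64.0% and 66.6% in goats A, B and C. For comparison regions it was 7.75% and 9.25%, then 10.1%, 12.4% and 9.50%, then 3.80%, 4.43% and 4.84%. The difference was 62.03 ± 7.58 percentage points (SD, n = 8 animals) and above 0 in 8 of 8 animals (p = 0.00781, two-sided exact sign-flip permutation test over 256 arrangements, the smallest p it can give). It was 58.5 points within 10 classes of fold enrichment of the starting region and 57.7 points within width classes (exact permutation p = 0.00781 in both). Animals of a species were compared at the same placed regions, and a pair of regions can enter in both directions.

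**Figure D5:**
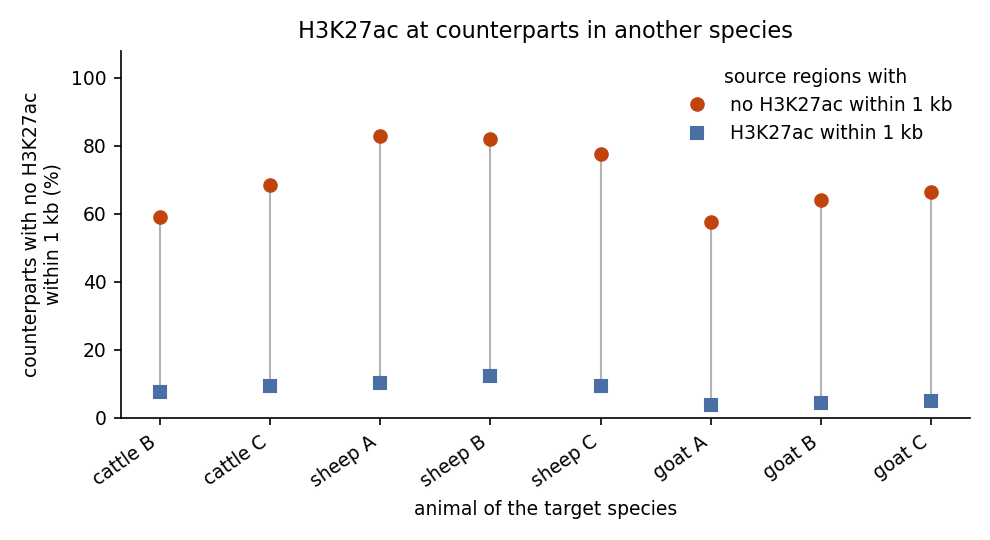
Percent of counterparts in another species, with H3K4me3 in the animal shown, that had no H3K27ac of that animal within 1 kb (y axis), for the 8 animals with both marks (x axis). Circles are counterparts of regions without H3K27ac and squares those of comparison regions; the circles lie between 57.5% and 82.8% and the squares between 3.80% and 12.4%.

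Of 52 cattle regions placed on a region of the same kind in another species, 11 were so placed in both others. The count was 7 of 117 starting from sheep and 15 of 109 starting from goats. Many of these regions could not be placed in both other species, so the counts are not rates of sharing. Over all placements of regions without H3K27ac, 311 of 879 (35.4%) fell on a region that met all criteria. For comparison regions it was 282 of 9048 (3.12%). At cattle chromosome 16, 46927230-46927730, the fold enrichment was 9.55, 8.22 and 12.99 in animals A, B and C. Its counterpart on sheep chromosome 12 at 50577502-50578076 had 12.004, 12.9 and 15.9, and that on goat chromosome 16 at 45462840-45463387 had 10.2, 14.3 and 16.3. These lay 10.03, 9.73 and 8.93 kb from the nearest H3K27ac peak. The region at cattle chromosome 7, 50973956-50974719, had 7.85, 5.91 and 10.6, and H3K27ac began 5.73 kb away in cattle, 5.68 kb in sheep and 5.78 kb in goats. On chromosome 4, regions at 68841856-68842680 and 68849205-68850037 of cattle matched regions at 75723592-75724461 and 75730983-75731849 of sheep and at 51368990-51369726 and 51361523-51362428 of goats. The latter belong to the goat window with 10 regions described above. Fold enrichments at the first of this pair were 8.42, 6.86 and 9.28 in cattle, 8.50, 8.95 and 10.4 in sheep and 8.78, 9.58 and 10.1 in goats. At the other they were 6.52, 5.95 and 7.12 in cattle, 4.64, 6.10 and 4.87 in sheep and 4.48, 4.25 and 6.52 in goats. The distance to H3K27ac differed between the species here, with 13.5, 12.8 and 51.9 kb for the first and 7.73, 20.2 and 44.4 kb for the other in cattle, sheep and goats.

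The 63 runs of 3 or more regions were also searched for by their own spacing in both other species, and in 21 of 126 searches 3 or more positions were matched and no other place matched as many. In 8 of these matches none of the matched regions had H3K27ac within 1 kb, in 7 all of them had it and in 6 some did. In 20 of the 21 the next best place was only 1 position behind, so these matches are weak. The exception was a run of 5 regions on sheep chromosome 10, at 85854450-85867316, which had H3K4me3 regions at the same spacing on cattle chromosome 12 at 76726327-76739107, where 5 of 5 positions were matched within 500 bp and no other place matched more than 3. None of the 5 cattle regions had H3K27ac within 1 kb, and 2 of them met all criteria. On goat chromosome 12 at 9576507-9589111, 4 positions were matched against 3 at the next best place, and those 4 regions met all criteria. This run was chosen after its values were seen, as were the regions with counterparts in both other species.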

How the data were processed

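Per the labels and methods, reads were trimmed with Trim Galore 0.4.0, checked with FastQC 0.11.2, aligned with BWA 0.7.17 to ARS-UCD1.2 (cattle), Oar_rambouillet_v1.0 (sheep) and ARS1 (goats), freed of duplicates with Picard 2.25.0 and subsampled, and narrow peaks were called per library with MACS2 2.1.1. The build per species follows the methods and the sequence names in the lists, while the labels name ARS-UCD1.2 for all samples. Homologous chromosomes were paired as wholes by a hand-written table. Segments that lie on another chromosome in another species were not followed, in the correlations or in the placements. Whether the inputs served as background is not stated. The 17 deposited lists hold the position of a peak, its fold enrichment (a ratio) and its −log10 p-value and −log10 q-value, as the authors deposited them. Only peaks of q under 0.01 are listed. The methods give 1 subsampled read number for all paired-end libraries, but a list carries no reads, so the depth was not checked here and precision rests on 2 or 3 animals per group. Autosomes held 23483 to 29469 H3K4me3 and 35693 to 48735 H3K27ac peaks per library.

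Summits listed for the same interval counted as 1 peak, with the highest value of each measure. Coordinates are 1-based. The regions, limits and comparisons were chosen with earlier results of these data known. Regions named in the text are, per species, the 3 whose poorest rank by fold enrichment over the libraries was best, the widest, the one farthest from H3K27ac, and the fullest 1 Mb window, and exceptions are marked. Counterparts used flanking regions from 3000 bp to 100 kb away, with a tolerance of 300 bp plus 1% of the distance. Tests are exact permutation tests over animals at a threshold of 0.05. An animal letter marks the libraries of 1 liver, as the sample titles give it, and does not pair species. Gene context, sequence content and gene lists were not analysed here.

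Python 3.11.15, numpy 2.4.6, pandas 2.3.3, scipy 1.17.1 and matplotlib 3.10.9 were used. Interval operations were checked against bedtools 2.31.1 on simulated lists in 20 comparisons, of which 0 differed, and the tests and placements were tested on simulated data. Alternatives were a −log10 q of at least 5, other distances and widths, the 20000 strongest H3K27ac peaks, pairs of H3K27ac libraries, presence in 2 libraries, comparisons within classes of strength or width, other overlap rules, and leaving out each animal.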

Additional observations from a re-analysis of the deposited data

Results flagged for a closer look

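The excess of counterparts without H3K27ac, those of regions lacking it minus those of comparison regions, differed between the target species. Averaged over animals it came to 55.4 points where cattle were the target, 70.1 for sheep and 58.3 for goats, with F = 10.6 over 8 animals (exact permutation p = 0.0179, 560 arrangements), and sheep also had the fewest autosomal H3K27ac peaks per animal on average; the part of that number was not tested. Animals of a target species were scored at the same placed regions, so their spread does not cover the choice of regions, and the target species is mixed with the source species. In sheep, 78.4% of the counterparts of goat regions lacked H3K27ac and 48.2% of those of cattle regions. The differences in a left-out animal gave no such result (exact permutation p = 0.979 for recurrence and 0.586 for log2 fold enrichment over 9 animals).

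Sequences outside the autosomes were not part of any comparison, but held regions that met the same criteria. The X chromosome had 219 of 837 eligible regions in cattle (26.2%) and 132 of 704 in sheep (18.8%). Unplaced scaffolds had 487 of 1103 in sheep (44.2%) and 3612 of 5047 in goats (71.6%), so in goats more such regions lay on unplaced scaffolds than on autosomes. No X chromosome was set apart in goats, so their scaffolds can include X sequence. The scaffold shares of sheep and goats are therefore not like for like.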

How the results depend on the processing

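Counts of regions in cattle, sheep and goats rose to 5082, 5855 and 4965 with the 20000 strongest H3K27ac peaks and to 4267, 4473 and 3111 with presence in 2 libraries. Without 1 animal they were 2844 to 4744 in cattle (highest without B), 3703 to 4282 in sheep (highest without A) and 2419 to 3167 in goats (highest without A). The share with a neighbour was 17.02%, 18.2% and 17.04% with the 20000 strongest peaks, 19.2%, 19.5% and 18.6% with presence in 2 libraries, 10.8%, 13.2% and 12.6% under 1000 bp, 7.82%, 10.2% and 10.3% within 5 kb and 28.3%, 30.9% and 27.04% within 50 kb. At a −log10 q of at least 5 it was 9.50% in cattle and 10.98% in goats. Without 1 animal it was 15.2% to 19.6%, 17.3% to 18.9% and 15.8% to 17.5%. The excess of sheep over goats in the own-animal share was 8.15 points under 1000 bp (exact permutation p = 0.0536) and 4.28 with the 20000 strongest peaks (exact permutation p = 0.196), and without 1 animal 5.78 to 8.47 (exact permutation p from 0.00952 to 0.124). The share gaining H3K27ac was 9.90% with the 20000 strongest peaks, 6.75% at 50% cover and 14.3% to 15.9% without 1 animal. The difference in log2 fold enrichment was −0.019 within classes of fold enrichment and −0.41 to −0.39 without 1 animal. The recurrence difference was −11.3 to −9.21 and the counterpart difference 60.5 to 63.5 points without 1 animal, and all alternatives of both stayed past the threshold. No value or difference compared here changed sign. The neighbour shares of the species, which were not tested against each other, changed order in some settings. Those of sheep and goats did so within 5 kb and with no H3K27ac within 10 kb (15.2% and 15.9%). Those of cattle and goats did so within 50 kb and with presence in 2 libraries. The cause of each change was not tested. With the animal letter as a replicate block, the species comparison had an exact permutation p of 0.0278, and the tests in a left-out animal without the pairing 0.002 and 0.00025, so the block changed no call.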
